A study of Mus musculus with 8 samples.

Results

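Messenger RNA of 10 enzymes of serine synthesis and folate one-carbon metabolism was examined in 4T1 cells, a mouse mammary carcinoma line of wild-type (WT) genotype. Cells of both groups were grown in serum-supplemented DMEM, a medium whose formula includes serine, glycine and folic acid, and were collected after 48 hours in either 5 mM acetate or the vehicle, water (H2O). Each group had 4 libraries, and acetate and vehicle libraries of the same replicate number formed a pair. The study sequenced these libraries to learn how more acetyl-CoA, of which acetate is a precursor, promotes metastasis. The 10 enzymes were Phgdh, Psat1, Psph, Shmt2, Mthfd2, Mthfd1l, Aldh1l2, Shmt1, Mthfd1 and Tyms. All 10 were among the 20189 genes of the deposited table and were above 0 in all 8 libraries. They were chosen by name, with the acetate response of these same libraries already known, so the errors, intervals and calls given for their changes with acetate describe these libraries and are not independent tests of the enzymes.

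The cells are 1 established line in culture. In bulk libraries, fewer cells that express an enzyme and less of its RNA per cell cannot be told apart. The library totals recovered from the values ran from 19.9 to 29.3 M reads (M, mega). The epithelial carcinoma markers Epcam, Krt8, Krt18, Krt19 and Cdh1 summed to between 42130 and 59632 normalised reads in the vehicle libraries and to between 44422 and 60637 in the acetate libraries. By the calls defined below, Krt19 (log2 change 0.40) and Cdh1 (0.15) were higher with acetate, and Epcam, Krt8 and Krt18 were not called. Of 5 leukocyte markers 2 were in the table, and their summed level was at most 4.02 normalised reads with vehicle and 5.03 with acetate. Of 4 endothelial markers 3 were in the table, summing to at most 6.14 and 7.06 respectively. Neither of the 2 adipocyte markers was in the table.

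Serine can be made in the cytosol from an intermediate of glycolysis by Phgdh, Psat1 and Psph acting in turn. A serine hydroxymethyltransferase then passes a carbon of serine to tetrahydrofolate and leaves glycine. This happens in parallel in mitochondria (Shmt2) and in the cytosol (Shmt1). In mitochondria the folate-bound carbon is oxidised by Mthfd2 and released as formate by Mthfd1l, while Aldh1l2 can oxidise it to carbon dioxide. In the cytosol Mthfd1 interconverts the folate-bound carbon units used for purines, and Tyms uses such a unit to make thymidylate for DNA. The serine synthesis and mitochondrial folate enzymes are known for their high expression in many tumours and for their regulation by the transcription factor ATF4.

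The promoters are shown for the matched pairs of enzymes whose levels are compared between the compartments. The 250 bases before the annotated start of Shmt2 (mitochondrial; chr10:127522445-127522694, minus strand), Shmt1 (cytosolic; chr11:60811266-60811515, minus strand), Mthfd2 (mitochondrial; chr6:83317605-83317854, minus strand) and Mthfd1 (cytosolic; chr12:76254982-76255231, plus strand) are from RefSeq on build GRCm38.p6 and are written 5′ to 3′ in the direction of transcription. The RefSeq starts can differ from those of the gene spans given below, and the windows of Mthfd2 and Shmt1 lie inside those spans. Capitals mark each CG dinucleotide.
Shmt2: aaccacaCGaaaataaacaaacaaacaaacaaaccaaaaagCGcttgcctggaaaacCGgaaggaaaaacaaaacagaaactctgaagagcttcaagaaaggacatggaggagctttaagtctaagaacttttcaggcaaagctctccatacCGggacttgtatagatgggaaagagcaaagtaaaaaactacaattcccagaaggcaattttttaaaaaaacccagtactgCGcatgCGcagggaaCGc
Shmt1: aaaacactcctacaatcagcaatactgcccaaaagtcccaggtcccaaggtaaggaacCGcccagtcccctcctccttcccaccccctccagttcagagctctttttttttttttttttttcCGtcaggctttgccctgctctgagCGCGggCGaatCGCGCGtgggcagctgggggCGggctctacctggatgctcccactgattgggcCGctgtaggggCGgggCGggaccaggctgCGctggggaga
Mthfd2: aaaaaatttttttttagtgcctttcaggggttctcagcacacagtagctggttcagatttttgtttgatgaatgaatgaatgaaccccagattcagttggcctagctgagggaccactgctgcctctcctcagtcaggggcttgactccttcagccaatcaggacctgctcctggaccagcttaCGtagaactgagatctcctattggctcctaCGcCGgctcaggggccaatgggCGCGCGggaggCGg
Mthfd1: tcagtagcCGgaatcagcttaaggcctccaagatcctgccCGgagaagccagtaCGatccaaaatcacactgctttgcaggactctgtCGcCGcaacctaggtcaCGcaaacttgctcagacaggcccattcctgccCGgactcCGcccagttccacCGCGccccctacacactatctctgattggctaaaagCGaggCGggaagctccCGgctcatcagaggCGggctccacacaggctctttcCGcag

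The windows of Shmt2 and Mthfd2 each held 7 CG dinucleotides, against 13 for Shmt1 and 15 for Mthfd1. The median over the 32851 promoter windows of the same length was 6. Mthfd1l and Phgdh had 7 CG dinucleotides, Tyms 6 and Psph 23, and the windows of Psat1 had 16 and 24. RefSeq windows were matched for 9 of the 10 enzymes, Aldh1l2 being the exception. The composite C/EBP-ATF element TGATGNAA, searched on both strands over the 250 bases before and 50 after the start, was found in 0 of the 10 windows of these 9 genes and in 3.97% of all windows. The E-box CACGTG was found in that span of Tyms only, with its first base 61 bases before the start (position -61), and in 7.15% of all windows. The 2 motifs can overlap by 2 letters (TG), but none of the windows of these genes held both. A match or its absence describes only these windows. Those of Psat1, like those of Mthfd2 and Shmt1, lie inside the gene span given for the enzyme, and those of Phgdh and Psph partly so.

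The serine synthesis enzymes had mean changes with acetate of -11.9% (Phgdh), -16.2% (Psat1) and -27.4% (Psph). Values are normalised reads, that is, reads scaled to a library total of 20 M. Changes are differences of log2(value + 1), acetate minus vehicle, with the standard error (SE) of the paired fit (limma) over 4 pairs. This SE is moderated, that is, it also draws on the variances of all genes. It can thus be smaller or larger than the error of the 4 pair changes alone. Those had a standard deviation (SD) of 0.20 for Shmt2 (SE 0.06) and 0.02 for Mthfd1l (SE 0.03).

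Phgdh (phosphoglycerate dehydrogenase, ENSMUSG00000053398, chromosome 3, 98313170 to 98339990, GRCm38, minus strand) catalyses the committed step of serine synthesis. Its level was 7119.9, 5917, 6432 and 4398 normalised reads in vehicle replicates 1 to 4 and 7211, 4906, 5874 and 3456 in acetate replicates 1 to 4. Acetate was lower in pairs 2, 3 and 4 and slightly higher in pair 1, and the ranges of the groups overlapped. The mean log2 change was -0.18 ± 0.05 (SE, n = 4 pairs).

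Psat1, the phosphoserine aminotransferase that adds the amino group from glutamate, lies on chromosome 19 (ENSMUSG00000024640, 15904678 to 15947337, minus strand). It stood at 12921, 12863, 13837 and 9013 normalised reads with vehicle and at 11635, 10464, 12893 and 6504 with acetate. It was lower in each pair, by 0.15, 0.30, 0.10 and 0.47 on the log2 scale in pairs 1 to 4. The mean change was -0.26 ± 0.05 (SE, n = 4 pairs), and pair 4, the pair with the lowest levels, moved furthest.

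Psph, the phosphatase that releases free serine, lies on chromosome 5 (ENSMUSG00000029446, 129765558 to 129787449, minus strand). Its values were 1810.1, 2154, 2403 and 1281 with vehicle and 1543, 1405, 1785 and 861 with acetate. All 4 pairs were lower with acetate, with changes from -0.23 in pair 1 to -0.62 in pair 2 and a mean of -0.46 ± 0.05 (SE, n = 4 pairs), beyond that of Phgdh or Psat1. Psph overlaps Cct6a, a chaperonin gene on the opposite strand with 14014 normalised reads with vehicle and 13378 with acetate (means, n = 4), with a log2 change of -0.08 (adjusted p = 0.123, limma). Whether reads were counted by strand is not stated, so reads may be shared between them.

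**Figure D1:**
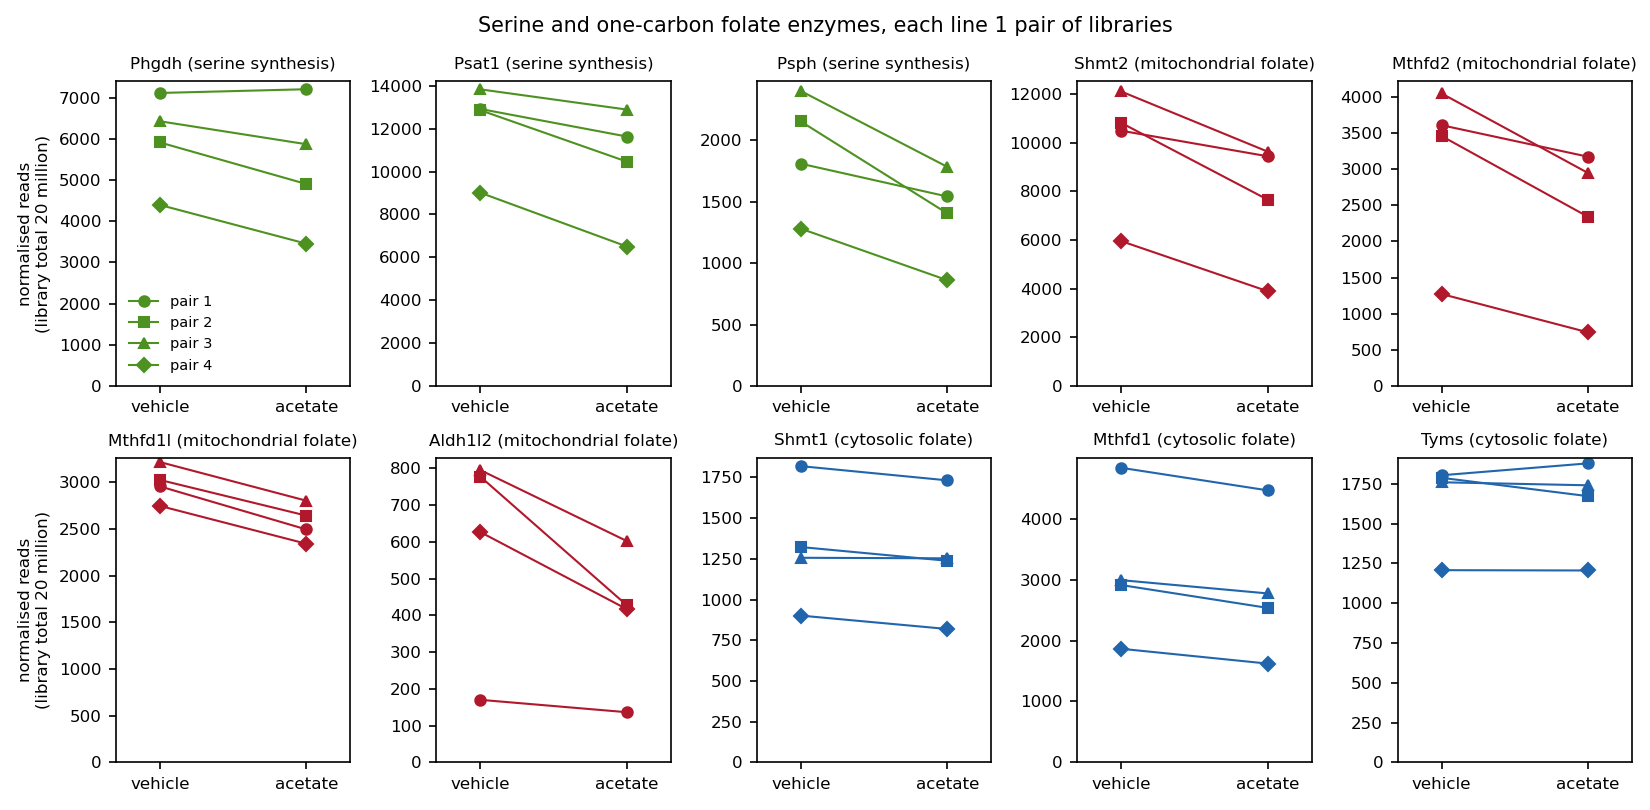
Normalised reads (y axis, library total 20 M, starting at 0) of the 10 enzymes with vehicle and with acetate. Each line joins the 2 libraries of 1 pair and each colour is a role; for Mthfd2 pair 4 runs from 1272 to 741 and lies below the other pairs, and for Tyms the lines are nearly flat.

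The mitochondrial folate enzymes had mean changes with acetate from -14.0% (Mthfd1l) to -31.3% (Aldh1l2), and each was lower in 4 of 4 pairs. Shmt2, the mitochondrial serine hydroxymethyltransferase (ENSMUSG00000025403, chromosome 10, 127517123 to 127522444, minus strand), was the most abundant of them. It had 10499, 10822, 12113 and 5957 normalised reads with vehicle and 9447, 7663, 9638 and 3896 with acetate. Replicate 4 was the lowest in both groups, and the groups overlapped because the lowest vehicle library lay below the acetate libraries of replicates 1 to 3. The log2 change was -0.40 ± 0.06 (SE, n = 4 pairs), with pairs from -0.15 (pair 1) to -0.61 (pair 4).

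Mthfd2, the mitochondrial methylenetetrahydrofolate dehydrogenase and cyclohydrolase (ENSMUSG00000005667, chromosome 6, 83305691 to 83325908, minus strand), showed one of the larger changes. Its values were 3608, 3458, 4047 and 1272 with vehicle and 3171, 2339.9, 2946 and 741 with acetate. The change was -0.19, -0.56, -0.46 and -0.78 in pairs 1 to 4, with a mean of -0.50 ± 0.07 (SE, n = 4 pairs). Pair 4 was both the lowest in level and the furthest moved. The unnamed transcript Gm43890, on the same strand, overlaps Mthfd2 with a mean of 23.4 normalised reads with vehicle.

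Mthfd1l, the formate-releasing synthetase of mitochondria (ENSMUSG00000040675, chromosome 10, 3973118 to 4167081, plus strand), had the steadiest change. It stood at 2955, 3024, 3215 and 2746 normalised reads with vehicle and at 2493, 2641, 2801 and 2340.2 with acetate. The pairs moved by -0.24, -0.20, -0.20 and -0.23, a spread of 0.02 (SD) around a mean of -0.22 ± 0.03 (SE, n = 4 pairs). In no other enzyme was the spread of the pair changes below 0.05.

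Aldh1l2, the mitochondrial formyltetrahydrofolate dehydrogenase, which yields NADPH (ENSMUSG00000020256, chromosome 10, 83487450 to 83534140, minus strand), was the least abundant and had the largest mean change of the 10. It had 170.2, 777, 795 and 627 normalised reads with vehicle and 137, 427, 602 and 417 with acetate. Replicate 1 was far below the others in both groups, yet acetate was lower there too, by 0.32 on the log2 scale, against 0.86, 0.40 and 0.59 in pairs 2 to 4. The mean was -0.54 ± 0.08 (SE, n = 4 pairs). Without pair 2 it was -0.43, against -0.47 for Mthfd2, so its rank as the largest depends on that pair. The acetate library of replicate 1 held 174 reads of Aldh1l2, a counting error of 7.58%, whereas each of the other 9 enzymes had at least 1031 reads in every library. On the opposite strand Aldh1l2 overlaps D10Wsu102e, which had 1612 normalised reads with vehicle and 1606 with acetate (means, n = 4).

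The cytosolic folate enzymes had mean changes of -5.19% (Shmt1), -10.2% (Mthfd1) and -0.958% (Tyms). Shmt1, the cytosolic counterpart of Shmt2 (ENSMUSG00000020534, chromosome 11, 60788104 to 60811718, minus strand), stood at 1819, 1323, 1257 and 902 normalised reads with vehicle and at 1732, 1238, 1253 and 819 with acetate. Acetate was below vehicle in 4 of 4 pairs, but by no more than 0.14 on the log2 scale. The mean change was -0.08 ± 0.03 (SE, n = 4 pairs; 95% interval -0.15 to -0.0005). Its gene overlaps Smcr8 on the opposite strand (1337 normalised reads with vehicle and 1325 with acetate, means, n = 4).

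Mthfd1, a trifunctional cytosolic enzyme (ENSMUSG00000021048, chromosome 12, 76255298 to 76319803, plus strand), had 4834, 2910.4, 2991 and 1864 normalised reads with vehicle and 4464, 2535, 2773 and 1621 with acetate. The pairs moved by -0.11, -0.20, -0.11 and -0.20, with a mean of -0.16 ± 0.03 (SE, n = 4 pairs). Replicate 1 was the highest in both groups and replicate 4 the lowest.

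Tyms, thymidylate synthase (ENSMUSG00000025747, chromosome 5, 30058202 to 30073617, minus strand), had 1803, 1787, 1759 and 1207 normalised reads with vehicle and 1878, 1672, 1740.2 and 1205 with acetate. It was slightly higher in pair 1 and lower in the other pairs, and the mean change was -0.01 ± 0.03 (SE, n = 4 pairs; 95% interval -0.09 to 0.06). The interval reaches down to -0.09.

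A gene was called where its adjusted p was under 0.05 in limma's fit of all genes with the pair as a block. By that mark 8 of the 10 enzymes were called lower with acetate, and Shmt1 and Tyms were not called. Of all 20189 genes, 2.65% were called lower and 5.99% higher. Among the 10292 genes with a mean above 100 normalised reads, the level at which all 10 enzymes lay, 5.08% were called lower and 9.89% higher. Because the enzymes were chosen from this contrast, the count repeats values that were already known, and nothing is read from it. The median log2 change was -0.24 over the 10 enzymes and 0.02 over all genes. Ordered from the most lowered of the 10292, Aldh1l2 stood at place 4, Mthfd2 at 9, Psph at 14 and Shmt2 at 24, while Shmt1 stood at 2013 and Tyms at 4487.

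The calls rested on the comparison within pairs. The vehicle and acetate ranges overlapped for all 10 enzymes, but the share of all genes that overlap is not given here. Nothing particular to the enzymes is therefore read from that overlap. Without the block limma called 0 of the 10 and 0% of all genes, with 1 of the 10 (Mthfd1l) and 353 of all genes at an unadjusted p under 0.05. When 1 pair was left out, 8 enzymes were called without pair 1, 5 without pair 2, 6 without pair 3 and 4 without pair 4. The 4 that remained called in each case were Psph, Shmt2, Mthfd2 and Mthfd1l. Phgdh and Mthfd1 lost the call without pair 2, 3 or 4, Psat1 without pair 2 or 4, and Aldh1l2 without pair 4.

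**Figure D2:**
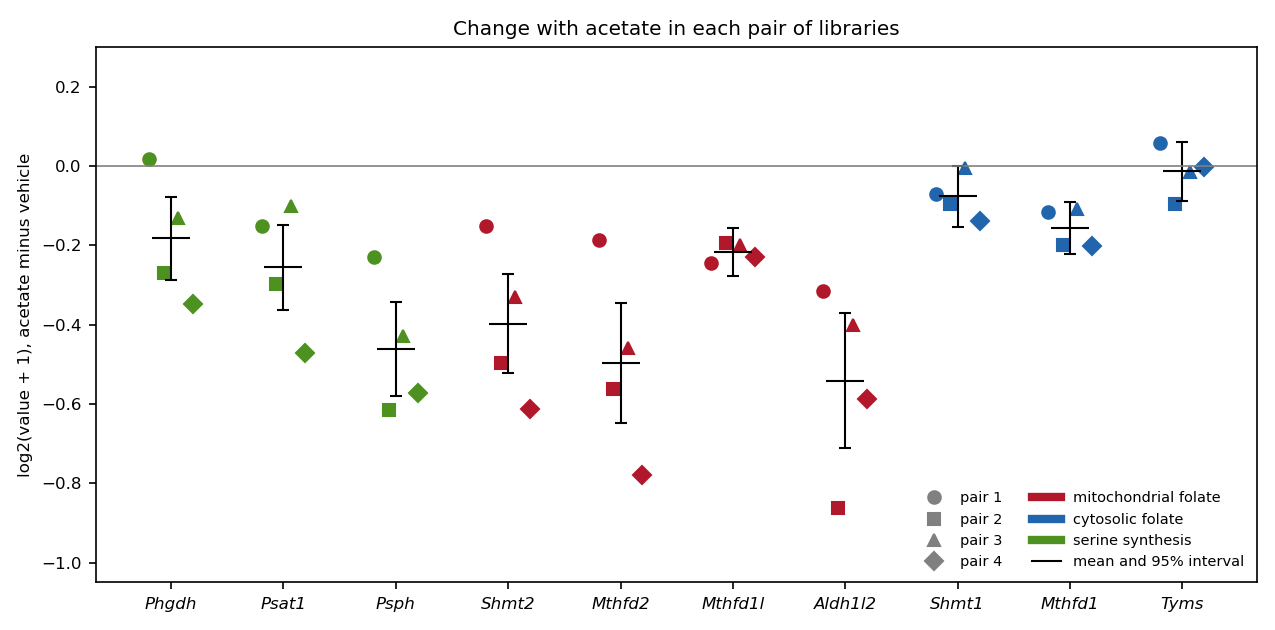
Difference of log2(value + 1), acetate minus vehicle, for each enzyme (x axis), with 1 point per pair, the mean as a short line and its 95% interval as a bar. The mitochondrial enzymes average between -0.22 and -0.54, while Shmt1 and Tyms lie close to 0.

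By compartment, the calls fell on 4 of 4 mitochondrial folate enzymes, 1 of 3 cytosolic folate enzymes and 3 of 3 serine synthesis enzymes, which is again a description of the chosen contrast. Averaged over its enzymes, the mitochondrial group moved by -0.22, -0.53, -0.35 and -0.55 on the log2 scale in pairs 1 to 4, a mean of -0.41 ± 0.16 (SD, n = 4 pairs). The cytosolic folate group moved by -0.04, -0.13, -0.04 and -0.11, a mean of -0.08 ± 0.05. The serine synthesis group lay between them at -0.12, -0.39, -0.22 and -0.46, a mean of -0.30 ± 0.16.

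The mean change of the mitochondrial group was below that of the cytosolic folate group in every pair. The difference was -0.18, -0.40, -0.30 and -0.44, a mean of -0.33 ± 0.11 (SD, n = 4 pairs). It was -0.29 ± 0.11 without Aldh1l2, the enzyme of lowest level. With the serine synthesis enzymes counted as cytosolic, which they are, the difference from the 6 cytosolic enzymes was -0.22 ± 0.06. The compartments thus did not divide the enzymes cleanly, since Psph moved about as far as Mthfd2 and, on average, Mthfd1l moved less than Psat1. The order of those last 2 turned without pair 4 (-0.21 for Mthfd1l and -0.18 for Psat1).

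Matched enzymes were then set side by side within each library, which removes the scaling of the library. Levels of different genes were compared as normalised reads per kb of the principal transcript. The ratio of Shmt2 to Shmt1 was 7.21, 10.2, 12.0 and 8.25 in vehicle replicates 1 to 4 and 6.81, 7.73, 9.60 and 5.94 in acetate replicates 1 to 4. The mitochondrial transcript thus stayed the more abundant in all 8 libraries, and the ratio was lower with acetate in 4 of 4 pairs, with a log2 change of -0.32 ± 0.17 (SD, n = 4 pairs).

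The ratio of Mthfd2 to Mthfd1 was 1.16, 1.85, 2.10 and 1.06 with vehicle and 1.10, 1.44, 1.65 and 0.710 with acetate. It was lower with acetate in 4 of 4 pairs (log2 change -0.34 ± 0.21, SD, n = 4 pairs), and acetate replicate 4 was the only library in which Mthfd1 exceeded Mthfd2 per kb, an order that depends on the transcript length used. Mthfd1l against Mthfd1, which share the synthetase step, gave 0.537, 0.913, 0.945 and 1.29 with vehicle and 0.491, 0.916, 0.888 and 1.27 with acetate. The log2 change of that ratio was -0.06 ± 0.06 (SD, n = 4 pairs), and it was lower in 3 of 4 pairs. With the merged length of all annotated exons the mean vehicle ratios were 9.43, 1.26 and 1.05, in place of 9.43, 1.54 and 0.922.

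Aldh1l1, the cytosolic counterpart of Aldh1l2, had at most 1 read in any library, so no ratio was formed. Mthfd2l, a mitochondrial relative of Mthfd2, had 508, 367, 386 and 402 normalised reads with vehicle and 484, 386, 371 and 444 with acetate. It was lower in 2 pairs and higher in 2 (log2 change 0.02 ± 0.05, adjusted p = 0.871, limma). The ratio of Mthfd2 to Mthfd2l, which was added after the values had been seen, was lower in 4 of 4 pairs (log2 change -0.52 ± 0.34, SD, n = 4 pairs).

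**Figure D3:**
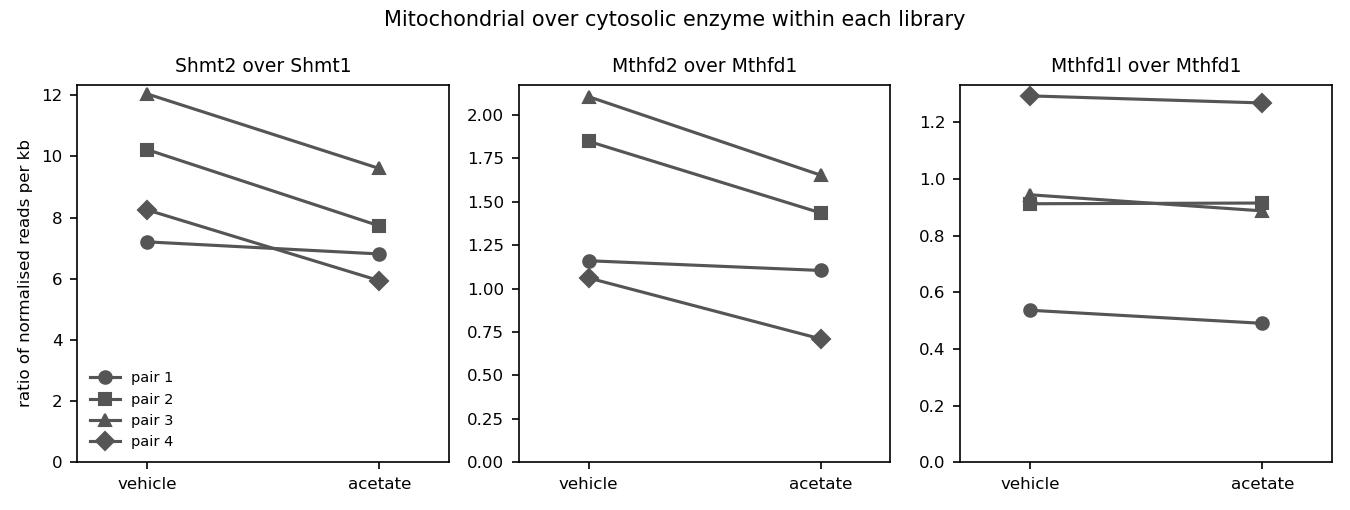
Ratio of a mitochondrial enzyme to its cytosolic counterpart, in normalised reads per kb (y axis, starting at 0), with each line joining the vehicle and acetate library of 1 pair. The ratio of Shmt2 to Shmt1 runs from 12.0 to 9.60 in pair 3 and that of Mthfd2 to Mthfd1 from 1.06 to 0.710 in pair 4, while Mthfd1l over Mthfd1 changes little.

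Per kb of transcript, Psat1 was the most abundant of the enzymes with vehicle, at 4646 ± 819 normalised reads per kb (SD, n = 4). Shmt2 followed at 4302 ± 1173 and Phgdh at 3152 ± 611. Psat1 exceeded Shmt2 in 3 of 4 vehicle libraries, so their order was not settled beyond the spread, whereas Shmt2 exceeded Phgdh in 4 of 4.

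Mthfd2 came next at 1485 ± 595 normalised reads per kb, then Psph at 1103 ± 280, Mthfd1 at 972 ± 381 and Mthfd1l at 810 ± 52.5. Each of these exceeded the one below it in 3 of 4 vehicle libraries only, so neighbours among these 4 enzymes were not separated. Tyms at 518 ± 91.2 and Shmt1 at 464 ± 132 lay below Mthfd1l in every vehicle library and were not separated from each other, and Aldh1l2 was the lowest at 98.3 ± 48.3. The order depends in part on the length used: per kb of all annotated exons merged, Shmt2 (3168) stood above Psat1 (2858), and Psph (442) stood below Mthfd1 (709) and Mthfd1l (673), as did Tyms (269) below Shmt1 (341). By both lengths Shmt2 lay near the top and Aldh1l2 at the bottom.

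The levels of these enzymes differed between replicates. All 10 differed between replicates in limma's F test with acetate in the fit, a test that does not use the acetate contrast (largest adjusted p = 0.00108). So did 58.2% of all genes and 82.5% of those with a mean above 10 normalised reads, as all 10 enzymes have, so their count is near the share of expressed genes. The highest replicate mean was between 1.18 (Mthfd1l) and 4.55 times (Aldh1l2) the lowest, while the largest decrease within a pair was between 1.07-fold (Tyms) and 1.82-fold (Aldh1l2). For 9 of the 10 the spread over replicates exceeded that decrease, Mthfd1l being the exception (1.18-fold against 1.19-fold). Without replicate 4, 8 of the 10 still differed between replicates, as did 47.6% of all genes.

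Replicate 4 was the lowest for 9 of the 10 enzymes, at between 30.9% (Mthfd2) and 89.1% (Mthfd1l) of the mean of the other replicates. Shmt2 stood there at 0.491 of the others, Mthfd1 at 0.510 and Tyms at 0.680. Aldh1l2 alone was lowest in replicate 1, at 0.253 of the mean of the others, and in replicate 4 it lay at 1.08 times that mean. The cytosolic Mthfd1 and Shmt1 were highest in replicate 1, at 1.90 and 1.57 times the mean of the others.

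Mthfd1l was nearly level across replicates, with means of 2724, 2832, 3008 and 2543 normalised reads in replicates 1 to 4. Within the mitochondrial group the replicates therefore spread from 1.18-fold to 4.55-fold. Within the cytosolic folate group they spread from 1.53-fold for Tyms to 2.67-fold for Mthfd1. Mthfd2 (3.47-fold) and Aldh1l2 lay above that cytosolic range, Shmt2 (2.21-fold) lay within it and Mthfd1l below it. What differed between the replicates is not given in the labels and was not tested.

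**Figure D4:**
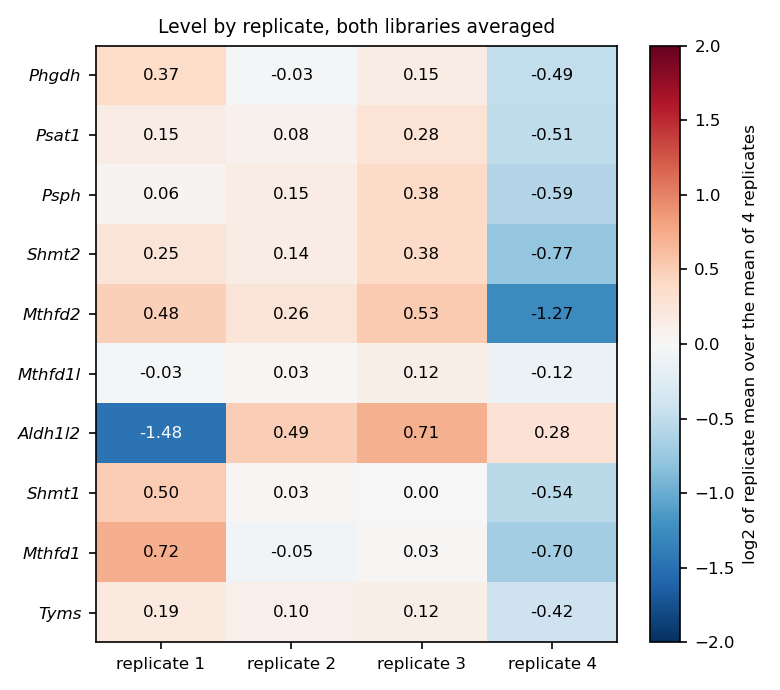
Level of each enzyme by replicate, vehicle and acetate libraries averaged, as log2 of the replicate mean over the geometric mean of the 4 replicate means (colour scale from -2 to 2, value printed in each cell). Replicate 4 is negative for all enzymes but Aldh1l2, whose replicate 1 stands at -1.48.

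The rest of the pathway was described with 8 lists of genes around the enzymes, 97 genes of which 92 were in the table. Of these 92, 13 were called lower, 5 higher and 74 were not called (limma, adjusted over all genes), and their median log2 change was -0.03. The shares to set beside this count and that of each list are 2.65% lower and 5.99% higher among all genes. Among genes with a mean above 100 normalised reads they are 5.08% and 9.89%. Without the block 0 of the 92 were called, with 2 at an unadjusted p under 0.05 in limma. Without pair 2, 3 or 4, the calls numbered 7, 5 and 7, and those kept whichever pair was left out were Slc6a9, Slc1a4, Slc1a5, Atf4 and Adssl1. The folate partners, which reduce, transport and use folates, had 1 of 15 lower and 1 higher. Mtr, methionine synthase, fell (-0.17 ± 0.04, SE, adjusted p = 0.0283), and Slc46a1, the proton-coupled folate transporter, rose (0.43 ± 0.10, adjusted p = 0.0252). DESeq2 called neither Mtr (adjusted p = 0.0567) nor Slc46a1 (adjusted p = 0.0928). The mitochondrial folate carrier Slc25a32 was not called (-0.05 ± 0.04, adjusted p = 0.600).

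Of 14 genes of serine and glycine use and transport, 3 were called lower, and all 3 encode transporters. Slc6a9, the glycine transporter GlyT1, fell from 772 ± 286 to 548 ± 200 normalised reads (SD, n = 4; log2 change -0.48, lower in 4 of 4 pairs, adjusted p = 3.51e-04, limma). Slc1a4, a carrier of serine and alanine, fell by 0.39 (adjusted p = 6.64e-04), and Slc1a5, a glutamine and neutral amino acid carrier, by 0.27 (adjusted p = 0.00148) on the log2 scale. The remaining 11, among them the serine palmitoyltransferase and phosphatidylserine synthase genes and the mitochondrial serine carrier Sfxn1, were not called.

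Of the 4 genes of glycine cleavage, which also feeds mitochondrial folate, Gcsh fell (-0.18, adjusted p = 0.0118) and Amt rose (0.48, adjusted p = 0.0360). DESeq2 gave Amt a similar change (0.43) but did not call it (adjusted p = 0.149). Gldc, its glycine decarboxylase, had a mean of 3.07 normalised reads with vehicle and 3.0 with acetate. None of the 8 methionine cycle genes was called by limma, edgeR or DESeq2, and 1 had an unadjusted p under 0.05 in limma. The values of Mat2a, which makes S-adenosylmethionine, were 5157 and 5153 normalised reads with vehicle and acetate (log2 change 0.00 ± 0.03, adjusted p = 0.958).

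Genes of nucleotide synthesis and S phase, which draw on the products of these enzymes, had calls in each list. In purine synthesis Adsl (-0.14, adjusted p = 0.0162) and Adss (-0.12, adjusted p = 0.0278) fell and Adssl1 rose (0.73, adjusted p = 0.00304), of 13 genes. In pyrimidine synthesis Cad, which begins the pathway, fell (-0.16, adjusted p = 0.00711), and the other 11 of 12 genes were not called. That list had 4 genes called lower with median-of-ratios scaling, with edgeR and with only genes above a mean of 10 tested, and 2 with DESeq2. Of 16 S phase genes, the replication licensing genes Mcm5 (-0.15, adjusted p = 0.0133) and Mcm6 (-0.10, adjusted p = 0.0310) fell, and the transcription factor gene E2f1 was called higher (0.13, adjusted p = 0.0482). The call of E2f1 was lost with a pseudocount of 0.1 (adjusted p = 0.0602), median-of-ratios scaling (0.0840), edgeR (0.0821) and DESeq2 (0.286), and without any 1 pair.

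Among 10 regulators, 3 were called lower and 1 higher. Atf4, which encodes the activator of amino acid synthesis genes, had 4529, 6033, 7345 and 2573 normalised reads with vehicle and 4102, 4287, 5503 and 1900.3 with acetate. It was lower in 4 of 4 pairs, by 0.14, 0.49, 0.42 and 0.44 on the log2 scale, and lowest in replicate 4 (mean -0.37 ± 0.05, SE, adjusted p = 0.00103, limma).

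Atf5, a related factor, fell by 0.72 (adjusted p = 0.00714), and Cebpg, a dimer partner of ATF4, by 0.15 (adjusted p = 0.0452; 0.0709 with a pseudocount of 0.1) on the log2 scale. Atf5 barely moved in pair 1 (743 and 721 normalised reads with vehicle and acetate). Nfe2l2, an activator of antioxidant genes, rose (0.13, adjusted p = 0.0193), though DESeq2 did not call its change (0.11, adjusted p = 0.128). Myc was not called (0.02 ± 0.04, adjusted p = 0.802), and neither was Ddit3 (-0.23 ± 0.11, adjusted p = 0.250). These are levels of mRNA, and the activity of the factors was not measured.

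**Figure D5:**
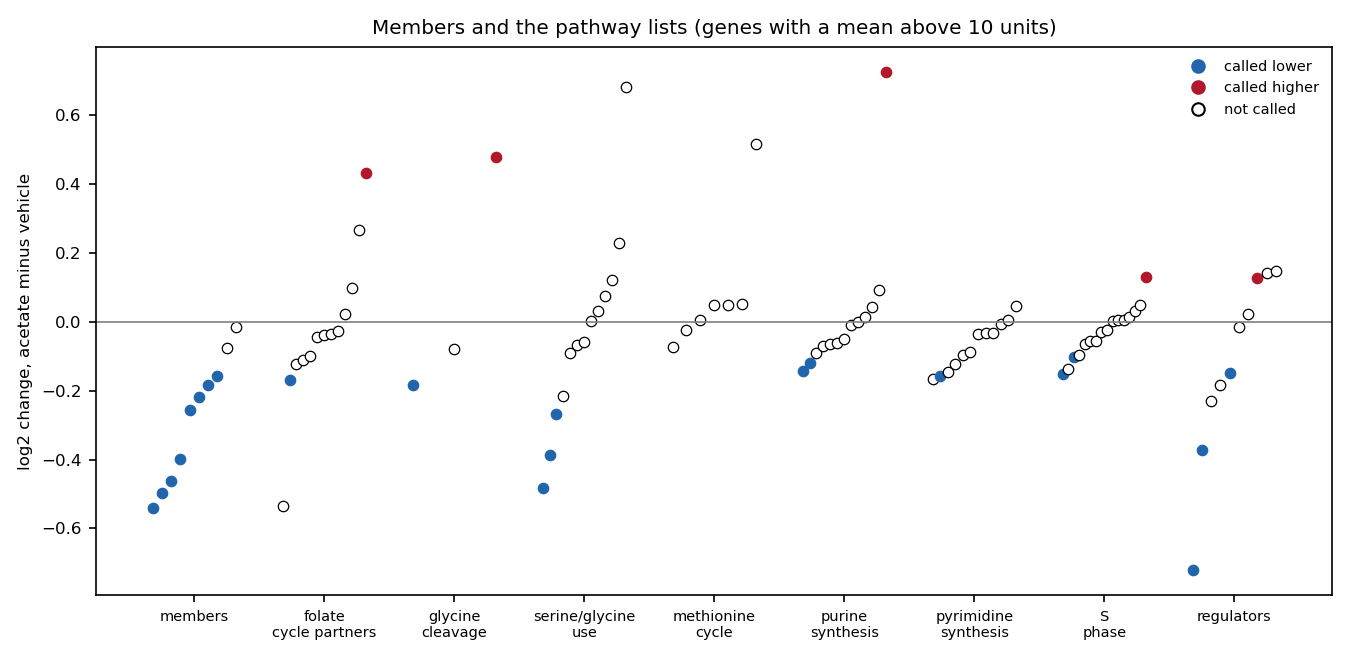
Log2 change with acetate (y axis, acetate minus vehicle) of the 10 enzymes and of the genes of the 8 lists with a mean above 10 normalised reads, 1 point per gene, filled blue where called lower and red where called higher. The enzymes lie between -0.54 and -0.01, and most points of the lists are open circles near 0.

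The genes most like an enzyme over the 8 libraries were taken as those with the smallest root mean square distance between log2 profiles centred on their means, among the 10292 genes with a mean above 100 normalised reads. For Aldh1l2 these were Pck2, a mitochondrial gluconeogenic enzyme (distance 0.243), Stc2, a secreted glycoprotein (0.262), and Pycr1, of proline synthesis (0.268). For Mthfd2 they were Slc1a5 (0.286), Shmt2 (0.304) and Atf4 (0.313). These genes were all called lower with acetate, against 5.08% of the 10292 genes. The distance includes the acetate libraries, and both enzymes were themselves lower there, so nothing is read from these calls.

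Phgdh and Tyms had closer neighbours than Aldh1l2 and Mthfd2, and the other enzymes were not examined in this way. For Phgdh they were Prmt3 (0.0394), Nup43 (0.0511) and Wars (0.0572), and for Tyms Spout1 (0.0274), Polb (0.0417) and Zik1 (0.0433). Of these, Prmt3 and Wars were called lower with acetate and the others were not called. The distance takes in differences between replicates as well as those with acetate, and the 8 profile points share 4 replicates.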

How the data were processed

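The authors sequenced stranded poly-A libraries, mapped them to the GRCm38 transcriptome and quantified genes with STAR (the labels also list HTSeq, and versions are not given in the sources used here). The unit of the deposited table is a signal, reads that the authors scaled to total library size, here 20 M (M, mega) per column. Genes expressed in fewer than 4 of the 8 libraries had been removed. All values were whole multiples of 1 read (tolerance 0.05), which gave back 19.9 to 29.3 M reads per library. In vehicle replicate 3 such a read is worth 1.01 units, which cannot be told from rounding, so count tests on recovered reads (edgeR 4.0.16, DESeq2 1.42.0) were alternatives only.

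Ensembl identifiers were matched to GENCODE M21 symbols (20004 of 20189). The main test was limma 3.58.1 in R 4.3.3 with a mean-variance trend on log2(value + 1). It covered all genes, was two-sided, had acetate and the replicate number as terms and used a Benjamini-Hochberg threshold of 0.05. This scale understates fold changes of low genes. Same-numbered libraries share an experiment code in the labels, and deviations of paired libraries from their group means correlated at 0.814, 0.273, 0.201 and 0.691 (18188 genes), so the numbers were taken as pairs. The F test of replicates had 3 degrees of freedom. P-values for acetate in the main test set the change against the spread of the differences within pairs. The block takes out the spread between replicates, and all cultures are of a single line.

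The enzymes, lists and tests were chosen with earlier results of these data known. Genes named were the 10 enzymes, Aldh1l1, Mthfd2l and Atf4, up to 3 genes per list and direction with the largest called change and a mean above 10 units, and the 3 nearest profiles of 4 enzymes; a few uncalled genes were named for their role after their values had been seen. Ratios and group means have no test. The fits were tested on simulated data. Alternatives were other pseudocounts (0.1 and 5), a filter on low values, median-of-ratios scaling, no block, count tests and leaving out each pair.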

Additional observations from a re-analysis of the deposited data

Results flagged for a closer look

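Among 34 results, a library lay apart from the other 3 of its group in 4 of 68 groups, where its gap to the nearest value took up more of the range than Dixon's 95% limit. Chance would give about 3.4 such groups. Tyms was lowest in vehicle replicate 4, at 1207 normalised reads against 1759 to 1803 in the other vehicle libraries (gap 0.926 of the range). Adss was highest in acetate replicate 1, at 4392 against 3640 to 3748 (0.856). Amt was lowest in vehicle replicate 1, at 19.9 against 83.4 to 94.2 (0.855). Aldh1l1 was highest in vehicle replicate 2, at 0.814 against 0 in the others (1.0), a single read.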

How the results depend on the processing

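The 8 called enzymes kept their direction under every alternative run, and the log2 change of Tyms, not called, ran from -0.04 to 0.01 when 1 pair was left out. With the pair as a block, 8 of the 10 were called with a pseudocount of 5, a filter on low values, median-of-ratios scaling, edgeR and DESeq2, and 7 with a pseudocount of 0.1, which lost Phgdh. Without the replicate block 0 enzymes, 0 of all genes and 0 genes of the lists were called. Leaving out 1 pair gave 4 to 8 enzymes, 409 to 1662 genes in all (1744 with 4 pairs; 617 without pair 2, 409 without pair 3 and 539 without pair 4) and 5 to 18 genes of the lists (18 with 4 pairs). EdgeR called 28 genes of the lists, and DESeq2 1126 genes in all. Of the called genes, 69.3% were higher in the main result, 54.9% with median-of-ratios scaling, 54.8% with edgeR and 58.0% with DESeq2. EdgeR without replicate 3, an alternative chosen after seeing the data, called 8 enzymes. The difference between mitochondrial and cytosolic folate enzymes ran from -0.38 to -0.30 when 1 pair was left out. Without pair 4, 8 enzymes differed between replicates (47.6% of all genes). All 10 did so without pair 1 (30.7% of all genes), pair 2 (57.5%) or pair 3 (57.0%). Without pair 3, 13 of the 20 other named genes lost their call. Every fit that leaves out a pair has fewer libraries, also the fit without pair 1, which called 1662 genes. The cause of the lost calls was not tested. Among the enzymes, depth limits Aldh1l2 in replicate 1 most. It also limits genes near 0, such as Aldh1l1, Gldc and the leukocyte and endothelial markers.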
